A study of Homo sapiens with 9 samples.

Results

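The genes described here are the 10 enzymes that make serine from glucose and pass its carbon to folate, PHGDH, PSAT1, PSPH, SHMT1, SHMT2, MTHFD1, ALDH1L1, MTHFD2, MTHFD1L and ALDH1L2, and they were taken by symbol from the 28395 genes of the deposited count table. All 10 were present, 9 passed the filter on low counts and ALDH1L1 had 0 counts in every library. RNA was sequenced from HK2, an epithelial line of normal renal proximal tubule, from 786-O, a line from a primary clear cell renal cell carcinoma (ccRCC), and from a metastatic derivative of 786-O, called the metastatic line here, which was recovered from lung metastases after injection into animals. No line was treated, all had been grown stably in Plasmax, a medium that follows the nutrient composition of human serum, and 3 cultures of each line gave 9 libraries. The study used these lines as a model of ccRCC progression, and the comparisons below ask how the mRNA of these enzymes differed between normal, primary and metastatic cells. Each stage was represented by 1 line, so the stage and the line cannot be told apart.

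In the serine synthesis pathway, a glycolytic intermediate is oxidized by PHGDH, receives an amino group through PSAT1 and loses its phosphate through PSPH. Serine hydroxymethyltransferases then split serine into glycine and a carbon unit carried by tetrahydrofolate, in the cytosol (SHMT1) and in mitochondria (SHMT2), and a parallel set of folate enzymes in each compartment converts that unit to the forms used for thymidylate, purines and methyl groups. These enzymes are known for their role in proliferating cells and are under the control of factors such as ATF4, MYC and NRF2, and the kidney is a serine-producing organ.

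Between 30212291 and 45362428 counts on genes were obtained per library. Counts were converted to CPM, the usual depth-scaled unit, on TMM-corrected library totals, values are means ± SD of 3 cultures, and the 3 comparisons of lines came from 1 fit of edgeR's quasi-likelihood model to all 9 libraries. A difference was called at an adjusted p under 0.05 after Benjamini-Hochberg correction over 12695 genes. For single values the smallest p of an exact two-sided permutation test with 3 cultures a line is 0.1. The labels call the tissue kidney and HK2 proximal tubule cells. Of 11 proximal tubule markers, LRP2, SLC22A6 and SLC22A8 had 0 counts in every library, while PAX8 was present at 165 to 182 CPM in the 3 line means. The summed level of the 11 markers was 276 to 281 CPM in HK2, 351 to 369 CPM in 786-O and 282 to 309 CPM in the metastatic line, but the markers did not move together. ANPEP was at 1.74, 112 and 19.8 CPM in these lines and GGT1 at 108, 80.5 and 88.2 CPM, and the other 5 markers were each at or below 1.06 CPM in every line mean. Of 3 immune markers, PTPRC and CD3E had 0 counts in every library and CD68 was at 50.9, 27.0 and 36.0 CPM, and 3 endothelial markers together reached at most 0.124 CPM. The summed level of 5 epithelial markers was 1255 to 1298 CPM in HK2, 453 to 491 CPM in 786-O and 723 to 817 CPM in the metastatic line, and that of 5 fibroblast markers was 72.1 to 80.6, 276 to 344 and 20.4 to 23.9 CPM. The members of these sets did not move together either. EPCAM, KRT8 and KRT18 had the order of their sum, but KRT19 was at 105, 5.90 and 186 CPM and CDH1 at 4.52, 0.0930 and 0.00921 CPM. The fibroblast sum mainly followed COL1A1, at 53.6, 291 and 16.5 CPM. LUM was at 22.5, 14.6 and 5.47 CPM, and COL1A2, PDGFRA and DCN were each at or below 0.126 CPM in every line mean. The part of these differences in the results below was not tested. In RNA from a whole culture, fewer cells that express a gene and less RNA per cell cannot be told apart.

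PHGDH, the dehydrogenase that opens serine synthesis, was present in HK2 and at the limit of detection in both cancer lines. The gene (NCBI gene 26227) lies on the plus strand at chr1:119648411-119744218 of GRCh38. The 3 HK2 libraries had 86.7, 86.5 and 80.9 CPM, from 2697 to 3749 counts. The 3 libraries of 786-O held 1 count in all, and the 3 libraries of the metastatic line held 0. All HK2 libraries were thus high and all cancer libraries low, with no overlap. With 3 counts over the line as the floor, HK2 was at least 3161-fold higher than the metastatic line. The ratio of HK2 to 786-O was 10497, with an exact counting interval of 1884 to 414651 that covers counting error only. The gene passed the filter on low counts only through HK2, and it therefore had to differ in both comparisons with HK2.

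PSAT1, the aminotransferase that follows PHGDH, went the opposite way and was higher in both cancer lines. It is gene 29968, on the plus strand at chr9:78297125-78330093. It was present at 42.5, 41.9 and 42.6 CPM in HK2, at 88.7, 89.6 and 90.7 CPM in 786-O, and at 117, 115 and 122 CPM in the metastatic line. The 3 lines stepped up in this order without overlap. The log2 fold change against HK2 was 1.08 (n = 3 and 3, edgeR adjusted p = 1.69e-16) in 786-O, a 2.12-fold difference. The metastatic line differed from HK2 by 1.48 (SE 0.0399, edgeR adjusted p = 5.19e-19), a 2.79-fold difference. Between the cancer lines PSAT1 was 1.32-fold higher in the metastatic line (log2 fold change 0.40, SE 0.0378, edgeR adjusted p = 1.16e-08). The 2 comparisons with HK2 share the HK2 libraries, and the 2 with 786-O share the 786-O libraries, here and throughout.

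PSPH, the phosphatase of the last step, was lowest in the metastatic line. It is gene 5723, on the minus strand at chr7:56011051-56051604. Its level was 29.1, 29.8 and 28.6 CPM in HK2, 31.0, 27.8 and 28.8 CPM in 786-O, and 22.1, 24.1 and 24.7 CPM in the metastatic line. The HK2 and 786-O libraries overlapped, and each library of the metastatic line was below all of them. The difference of the metastatic line was -0.30 on the log2 scale against HK2 (SE 0.0555, edgeR adjusted p = 3.27e-05) and -0.31 against 786-O (SE 0.0551, edgeR adjusted p = 7.25e-05). Between 786-O and HK2 the difference was 0.0017 (95% interval -0.11 to 0.11, edgeR adjusted p = 0.978), with a sign that changed with the scaling.

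Reference sequence upstream of PHGDH and PSAT1 is shown because these consecutive enzymes had opposite patterns. The sequences are from RefSeq on GRCh38.p14, are read 5′ to 3′ on the plus strand, and have CpG dinucleotides in capitals. For PHGDH the 53 bases at chr1:119711684-119711736 are the stretch of the 300-base promoter window that precedes every annotated exon within it. They lie inside the span of longer annotated transcripts of the gene. For PSAT1 the 250 bases at chr9:78296875-78297124 end at the base before the annotated start.
PHGDH: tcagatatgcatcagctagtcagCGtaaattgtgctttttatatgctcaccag
PSAT1: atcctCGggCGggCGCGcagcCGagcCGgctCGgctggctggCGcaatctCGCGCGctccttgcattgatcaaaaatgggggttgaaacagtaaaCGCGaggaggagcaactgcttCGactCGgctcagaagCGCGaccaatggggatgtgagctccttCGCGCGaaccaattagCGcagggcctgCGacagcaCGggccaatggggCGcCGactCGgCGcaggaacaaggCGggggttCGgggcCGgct
The whole window, from 250 bases before to 50 bases after the RefSeq start, held 15 CpG for PHGDH and 37 for PSAT1. The median over 35116 such windows was 14, and 11.3% of them held at least as many as that of PSAT1. The window of PHGDH was thus near the median, and the printed stretches differ in length. No methylation data were used here, and any link of CpG content to the levels was not tested.

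**Figure D1:**
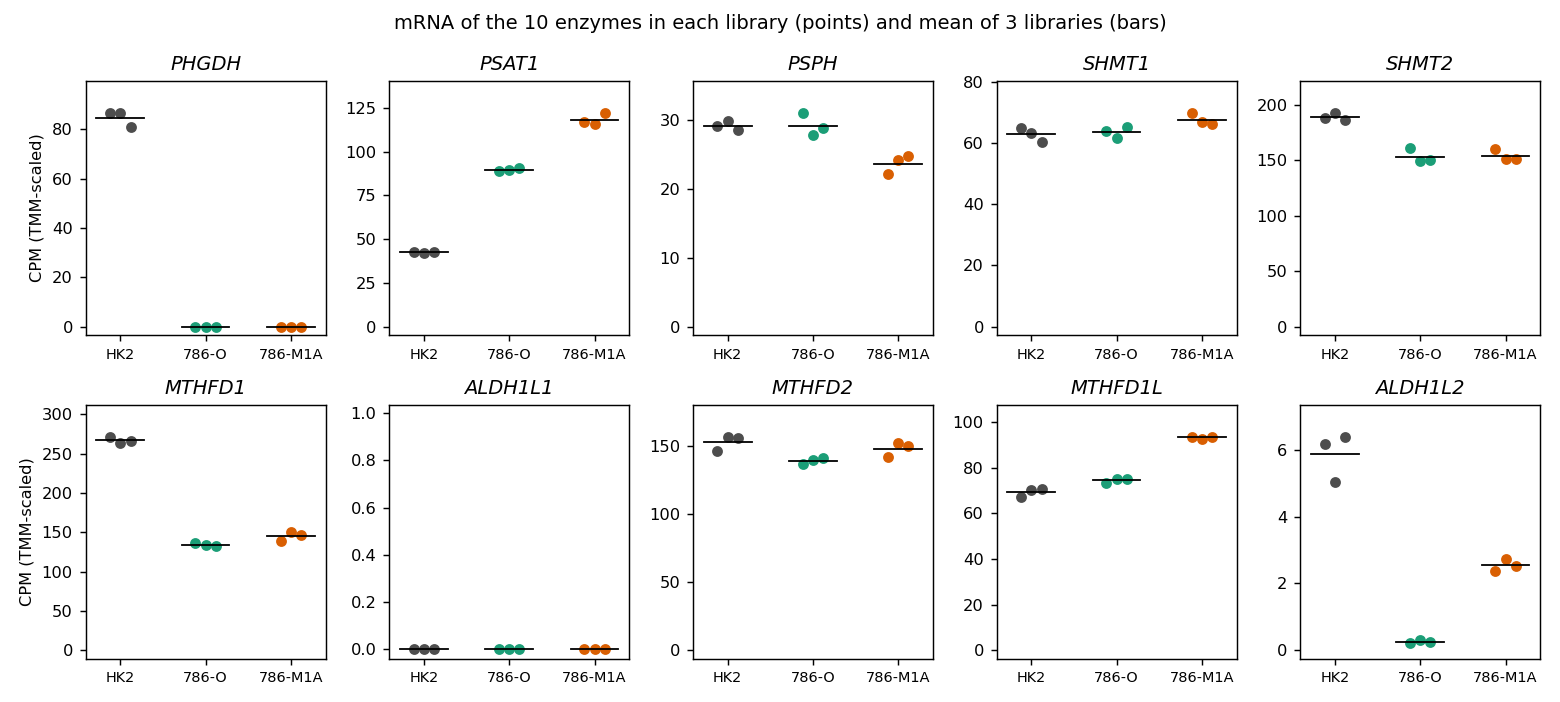
CPM (TMM-scaled, y axes starting at 0, a separate scale for each gene) of the 10 enzymes in each of the 9 libraries, as points grouped by line on the x axis (the metastatic line under its cell line name, on the right), with the mean of 3 libraries as a bar. PHGDH was at 84.7 CPM in HK2 and near 0 in both cancer lines, PSAT1 stepped up from 42.4 to 89.7 and 118 CPM, ALDH1L2 was at 5.86, 0.252 and 2.54 CPM, and ALDH1L1 was at 0 everywhere.

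The hydroxymethyltransferases differed far less between the lines. SHMT2, the mitochondrial enzyme (gene 6472, plus strand, chr12:57229573-57234935), was at 188, 193 and 186 CPM in HK2, at 161, 149 and 150 CPM in 786-O, and at 161, 152 and 151 CPM in the metastatic line. Every library of the cancer lines was below every HK2 library, and the cancer lines overlapped each other. SHMT2 was 1.23-fold lower in 786-O (log2 fold change -0.30, SE 0.0394, edgeR adjusted p = 3.44e-07) and in the metastatic line (-0.29, SE 0.0395, edgeR adjusted p = 5.03e-07). Between the cancer lines the difference was 0.0082 (95% interval -0.07 to 0.09, edgeR adjusted p = 0.881), with a sign that changed when single libraries of 786-O or the metastatic line were left out.

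SHMT1, the cytosolic enzyme (gene 6470, minus strand, chr17:18327860-18363563), stayed within a narrow range. It was at 65.0, 63.5 and 60.6 CPM in HK2, at 64.1, 61.9 and 65.4 CPM in 786-O, and at 69.9, 67.0 and 66.2 CPM in the metastatic line. HK2 and 786-O overlapped, and the libraries of the metastatic line were above both. Between 786-O and HK2 the log2 difference was 0.02 (95% interval -0.07 to 0.11, edgeR adjusted p = 0.705), and its sign changed with upper-quartile scaling. In the metastatic line the difference from HK2 was 0.10 (SE 0.0429, edgeR adjusted p = 0.0310). This call was lost with upper-quartile scaling (edgeR adjusted p = 0.252), without HK2 replicate 3 (0.164) and without replicate 1 of the metastatic line (0.0715). Against 786-O the difference of the metastatic line was 0.09 (95% interval -0.0036 to 0.17, edgeR adjusted p = 0.0956).

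Within each library the ratio of SHMT2 to SHMT1 counts does not depend on library size. It was 2.90, 3.03 and 3.07 in HK2, 2.51, 2.41 and 2.30 in 786-O, and 2.30, 2.26 and 2.28 in the metastatic line. The HK2 libraries were above all the others, and the cancer lines overlapped. On the log2 scale the ratio differed from HK2 by -0.32 (SE 0.0448, exact permutation p = 0.1) in 786-O and by -0.40 (SE 0.0267, exact permutation p = 0.1) in the metastatic line. Between the cancer lines it differed by -0.08 (exact permutation p = 0.2).

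MTHFD1, the trifunctional cytosolic enzyme that yields the formyl-folate used in purine synthesis, was lower in both cancer lines. It is gene 4522, on the plus strand at chr14:64388031-64463457. Its level was 271, 264 and 266 CPM in HK2, 137, 134 and 132 CPM in 786-O, and 139, 150 and 147 CPM in the metastatic line. The HK2 libraries were all far above the rest, and the libraries of the metastatic line lay just above those of 786-O without overlap. MTHFD1 was 1.99-fold lower in 786-O than in HK2 (SE of the log2 fold change 0.0370, edgeR adjusted p = 1.86e-16) and 1.84-fold lower in the metastatic line (-0.88, SE 0.0370, edgeR adjusted p = 1.40e-15). The difference between the cancer lines was 0.11 (SE 0.0373, edgeR adjusted p = 0.0125). It did not pass without 786-O replicate 3 (edgeR adjusted p = 0.0581) or without replicate 2 of the metastatic line (0.0511). ALDH1L1, the cytosolic dehydrogenase that oxidizes formyl-folate to carbon dioxide (gene 10840, minus strand, chr3:126103562-126197994), had 0 counts in all 9 libraries. The limit that 0 counts allow is 0.0255 CPM over the HK2 libraries, 0.0241 CPM over 786-O and 0.0267 CPM over the metastatic line.

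MTHFD2, the mitochondrial dehydrogenase and cyclohydrolase of proliferating cells, was close to even across the lines. It is gene 10797, on the plus strand at chr2:74186172-74217565. It was at 147, 157 and 156 CPM in HK2, at 137, 140 and 142 CPM in 786-O, and at 142, 153 and 150 CPM in the metastatic line. The 786-O libraries were below those of HK2, and the libraries of the metastatic line overlapped those of HK2. The difference of 786-O from HK2 was -0.14 (SE 0.0395, edgeR adjusted p = 0.00303). That of the metastatic line from HK2 was -0.05 (95% interval -0.13 to 0.03, edgeR adjusted p = 0.236), and it was called with upper-quartile scaling at -0.10 (edgeR adjusted p = 0.0244). Between the cancer lines it was 0.09 (95% interval 0.0045 to 0.17, edgeR adjusted p = 0.0675). That difference was called with RLE scaling (edgeR adjusted p = 0.0468) and without replicate 1 of the metastatic line (0.0118), HK2 replicate 1 (0.0398) or HK2 replicate 2 (0.0441).

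The ratio of MTHFD2 to MTHFD1 counts, mitochondrial to cytosolic, was 0.541, 0.595 and 0.587 in HK2, 1.01, 1.04 and 1.07 in 786-O, and 1.02 in each library of the metastatic line. Both cancer lines were above HK2 in every library and overlapped each other. The ratio was higher than in HK2 by 0.86 on the log2 scale in 786-O (SE 0.0509, exact permutation p = 0.1) and by 0.83 in the metastatic line (SE 0.0428, exact permutation p = 0.1). The values of the single genes show that this came with MTHFD1 at about 134 to 145 CPM in place of 267 CPM, and with MTHFD2 between 140 and 153 CPM in all line means.

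MTHFD1L, the mitochondrial synthetase that releases formate for export to the cytosol (gene 25902, plus strand, chr6:150865679-151101887), was highest in the metastatic line. Its level was 67.3, 70.4 and 70.8 CPM in HK2, 73.5, 75.2 and 75.3 CPM in 786-O, and 93.5, 92.8 and 93.6 CPM in the metastatic line. The libraries of the metastatic line were above all others, and those of 786-O lay just above those of HK2. MTHFD1L was 1.34-fold higher in the metastatic line than in HK2 (log2 fold change 0.42, 95% interval 0.34 to 0.50, edgeR adjusted p = 1.19e-09) and 1.25-fold higher than in 786-O (0.32, SE 0.0383, edgeR adjusted p = 3.24e-07). The difference of 786-O from HK2 was 0.10 (SE 0.0387, edgeR adjusted p = 0.0204). It was no longer called with upper-quartile scaling (edgeR adjusted p = 0.166), without HK2 replicate 1 (0.105), without 786-O replicate 2 (0.0523) or without 786-O replicate 3 (0.0532).

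ALDH1L2, the mitochondrial counterpart of ALDH1L1 and a source of NADPH in mitochondria, was the least abundant enzyme detected in HK2 and had the largest difference between the cancer lines among the 9 tested. It is gene 160428, on the minus strand at chr12:105019784-105107643. HK2 libraries had 6.17, 5.03 and 6.39 CPM (192 to 296 counts), 786-O libraries 0.203, 0.318 and 0.236 CPM (9 to 12 counts), and those of the metastatic line 2.38, 2.73 and 2.51 CPM (86 to 105 counts). The order of HK2, the metastatic line and 786-O held without overlap. Relative to HK2, ALDH1L2 was 23.3-fold lower in 786-O (log2 fold change -4.54, SE 0.183, edgeR adjusted p = 7.53e-16) and 2.31-fold lower in the metastatic line (-1.21, SE 0.116, edgeR adjusted p = 2.86e-09). It was 10.1-fold higher in the metastatic line than in 786-O (3.33, SE 0.219, edgeR adjusted p = 2.84e-11). By this log2 fold change it was number 36 from the highest among the 12695 genes tested.

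**Figure D2:**
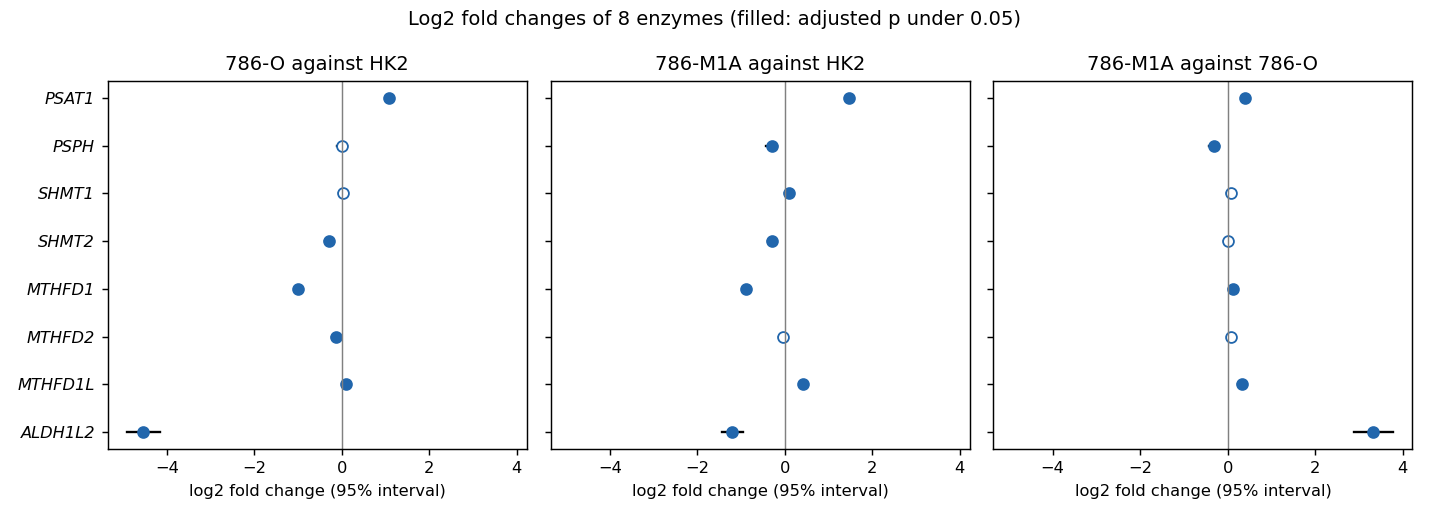
Log2 fold changes of 8 enzymes (y axis) in the 3 comparisons (panels), as points with 95% intervals, filled where the edgeR adjusted p was under 0.05. PHGDH is not drawn, since its fitted value depends on the prior count, and ALDH1L1 was not tested. ALDH1L2 was at -4.54, -1.21 and 3.33, PSAT1 at 1.08, 1.48 and 0.40, and most other points lay within 0.5 of 0, apart from MTHFD1, which was 1.99-fold and 1.84-fold lower than in HK2.

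Of the 9 enzymes tested, 2 rose and 5 fell in 786-O against HK2, beside 41.6% and 42.6% of all genes tested. Against HK2, 3 rose and 5 fell in the metastatic line, beside 41.6% and 43.3% of all genes. Against 786-O, 4 rose and 1 fell in the metastatic line, beside 27.9% and 28.0%. In either direction 84.2%, 84.9% and 56.0% of all genes were called. With 9 genes and shares of this size in the background, these counts set no direction for the pathway. At least a 2-fold difference was called for 3 of the 9 in each comparison with HK2 (PHGDH, PSAT1 and ALDH1L2), beside 22.3% of all genes in 786-O and 25.4% in the metastatic line, and for ALDH1L2 alone between the cancer lines, beside 6.59%. PHGDH passed the filter only through HK2 and had to differ from it, so its call adds nothing to these counts. ALDH1L2 also needed its HK2 counts to pass. Of the 8 enzymes without PHGDH, 2 rose and 4 fell in 786-O against HK2, and 3 rose and 4 fell in the metastatic line. At least a 2-fold difference was called for 1 higher and 1 lower enzyme of these in each comparison with HK2. Their median log2 fold change was -0.07, -0.17 and 0.10 in the 3 comparisons, and the median of all genes was -0.01, -0.02 and 0.

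Levels of different enzymes were compared per kilobase of the MANE transcript. In HK2, SHMT2 (87.6 CPM per kb) and MTHFD1 (84.7) stood highest, followed by PHGDH (45.4), MTHFD2 (34.8), SHMT1 (24.9), MTHFD1L (20.1), PSAT1 (19.2), PSPH (14.8) and ALDH1L2 (0.789), with no overlap between neighbours. In 786-O the order was SHMT2 (71.1), MTHFD1 (42.5), PSAT1 (40.7), MTHFD2 (31.7), SHMT1 (25.2), MTHFD1L (21.6), PSPH (14.8) and ALDH1L2 (0.0340). In the metastatic line, PSAT1 (53.5) had moved above MTHFD1 (46.1) and stood behind SHMT2 (71.5), and MTHFD1L (27.0) and SHMT1 (26.8) overlapped. PSAT1 thus went from position 7 of the 10 in HK2 to position 3 in 786-O and position 2 in the metastatic line, while SHMT2 kept position 1. A position also depends on the other enzymes. PHGDH went from position 3 in HK2 to position 9 in both cancer lines, and MTHFD1 was lower in both than in HK2.

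**Figure D3:**
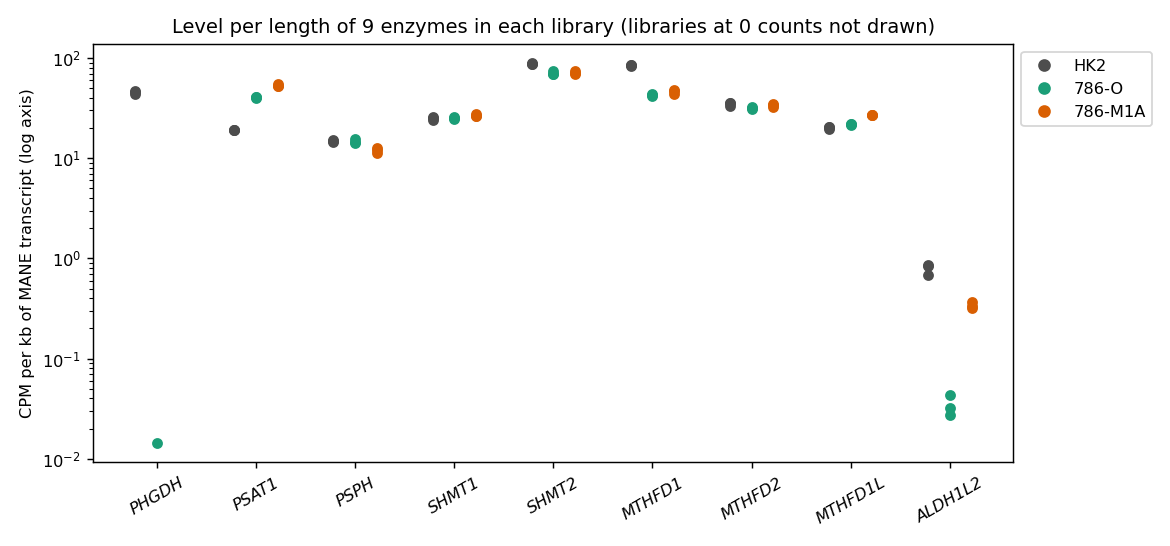
CPM per kilobase of MANE transcript (log y axis) of 9 enzymes (x axis) in each library, coloured by line, with libraries at 0 counts not drawn. SHMT2 was highest in all 3 lines at 71.1 to 87.6 CPM per kb, and ALDH1L2 was lowest among the enzymes with counts in every library, at 0.0340 to 0.789.

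Some of these counts could be shared with neighbouring genes, since the setting for strand is not given in the sources used here. ALDH1L2 overlaps NOPCHAP1 (9.29, 7.79 and 8.88 CPM in HK2, 786-O and the metastatic line) and WASHC4 (107, 124 and 108 CPM) on the opposite strand. The line means of NOPCHAP1 had the same order as those of ALDH1L2 over a much narrower range, and WASHC4 was highest in 786-O. For NOPCHAP1 only the difference of 786-O from HK2 was called (edgeR adjusted p = 0.0100). Its differences of the metastatic line from HK2 (edgeR adjusted p = 0.431) and from 786-O (edgeR adjusted p = 0.0844) were not. SHMT1 overlaps SMCR8, which was at 70.3, 48.6 and 36.7 CPM. MTHFD1 overlaps ZBTB25, which reached at most 4.11 CPM in a line mean, and MTHFD2 overlaps SLC4A5, at most 6.62 CPM. SHMT2 overlaps NDUFA4L2 on the opposite strand, and MTHFD1, MTHFD2 and MTHFD1L overlap further annotated genes. These overlapping genes were not analysed here. The pseudogene MTHFD2P1 was at 1.84 to 2.00 CPM. PSAT1, PSPH, SHMT1, MTHFD1 and MTHFD2 also have annotated pseudogenes that were not in the table, so their counts are uncertain to the extent that reads could be split between copies.

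Genes around these enzymes were examined in 5 lists of 55 genes, of which 47 were tested. In 786-O against HK2, 26 of them rose, 12 fell and 9 were not called, with a median log2 fold change of 0.27. Against HK2, 22 rose and 16 fell in the metastatic line (median 0.08), and between the cancer lines 12 rose and 17 fell (median 0.01). The background over all genes tested was 41.6% higher and 42.6% lower, 41.6% and 43.3%, and 27.9% and 28.0% in the same order.

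Among 15 genes of folate uptake and interconversion, 8 rose and 4 fell in 786-O against HK2, 6 rose and 6 fell in the metastatic line against HK2, and 4 rose and 5 fell between the cancer lines. SLC19A1, the reduced folate carrier, was higher in both cancer lines (log2 fold changes of 1.19 and 1.26). FOLR1, a folate receptor, was lower (-0.76 and -2.40), as was SLC46A1, the proton-coupled folate transporter (-0.83 and -2.76). TYMS, which makes thymidylate, was higher in both (0.27 and 0.41). The 3 glycine cleavage genes tested included GLDC, the decarboxylase of that system, which had 129 to 193 counts in each HK2 library, 172 to 231 in each of 786-O and 16 to 22 in each of the metastatic line. In the metastatic line against 786-O its log2 fold change was -3.24 (edgeR adjusted p = 1.18e-13).

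Of 10 transporters of serine and glycine tested, 5 rose in each comparison, while 3, 2 and 3 fell. SLC38A5, a transporter of neutral amino acids that include serine and glycine, stood at 40.3 CPM in HK2, with 4.04 ± 0.230 CPM left in 786-O and 0.295 ± 0.115 CPM in the metastatic line. The log2 fold change was -3.32 in 786-O (edgeR adjusted p = 1.61e-20) and -7.09 in the metastatic line (edgeR adjusted p = 1.10e-22) against HK2, and -3.77 between the cancer lines (edgeR adjusted p = 1.15e-13). SLC6A9, the glycine transporter GlyT1, was at 0.508 and 0.683 CPM in HK2 and 786-O and at 4.79 ± 0.109 CPM in the metastatic line. Its log2 fold change in the metastatic line was 3.29 against HK2 and 2.79 against 786-O. With 16 to 37 counts in each library of HK2 and 786-O, the gene passed the filter only through the metastatic line and therefore had to differ. SLC1A4, a neutral amino acid transporter of serine and alanine, rose in both cancer lines against HK2 (1.25 and 1.42). SLC38A2, another transporter of this list, fell in both (-1.73 and -1.54).

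Among 9 genes that use serine, 6 rose and 2 fell in 786-O, 5 rose and 3 fell in the metastatic line, and 2 rose and 4 fell between the cancer lines. CBS, which condenses serine with homocysteine, fell in both cancer lines (-1.93 and -3.02), and so did CTH, the next enzyme towards cysteine (-1.63 and -2.26). SPTLC3, a subunit of serine palmitoyltransferase, was at 3.37, 5.58 and 8.53 CPM in the 3 lines with a rise of 0.62 on the log2 scale from 786-O to the metastatic line (edgeR adjusted p = 2.45e-05). Of 10 genes of the methionine cycle and choline oxidation, 6 rose in each cancer line against HK2, 2 fell in 786-O and 3 in the metastatic line, and between the cancer lines 4 fell and 6 were not called. BHMT2, a homocysteine methyltransferase, had 0 counts in HK2, with 41.6 ± 1.51 CPM in 786-O and 24.5 ± 1.53 CPM in the metastatic line. These levels are at least 1638-fold and at least 959-fold higher, with 3 counts over the HK2 libraries as the floor. BHMT2 passed the filter only through the cancer lines and had to differ from HK2, and it is 1 of the 6 that rose. DMGDH, which demethylates dimethylglycine with folate as acceptor, was at 0.382, 3.23 and 2.13 CPM in the 3 lines. Its log2 fold change in 786-O against HK2 was 3.07, and with 12 to 18 counts in each HK2 library it passed the filter only through 786-O. SARDH, the next enzyme of that route, was at 3.07 CPM in 786-O and 0.625 CPM in the metastatic line, with 443 to 566 counts in each HK2 library, and fell by 2.06 in 786-O (edgeR adjusted p = 1.98e-14) and by 4.37 in the metastatic line (edgeR adjusted p = 1.02e-17) on the log2 scale.

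**Figure D4:**
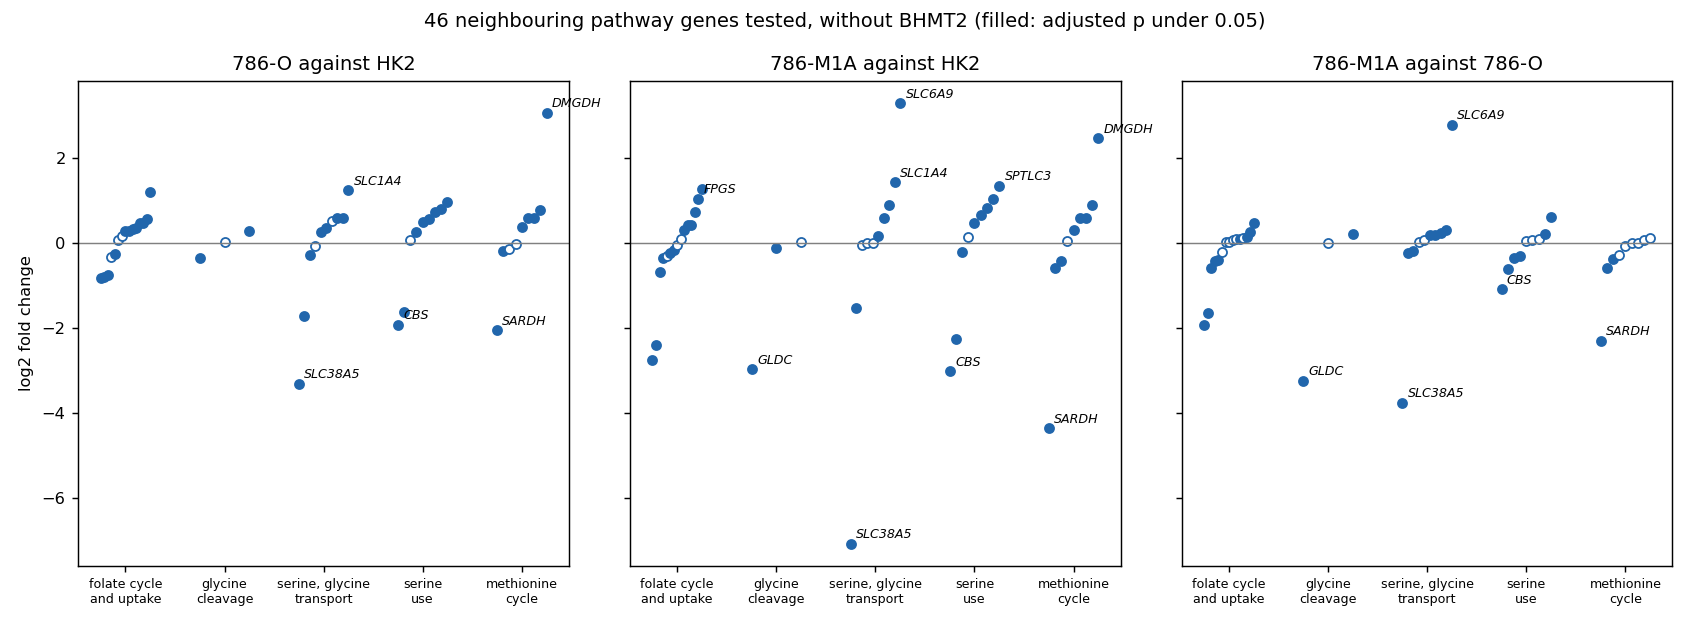
Log2 fold changes (y axis) of 46 tested genes around the 10 enzymes, in 5 lists along the x axis and in order of size within each list, in the 3 comparisons (panels), filled where the edgeR adjusted p was under 0.05. BHMT2 is not drawn because it had 0 counts in HK2. SLC38A5 was lowest in each panel, at -3.32, -7.09 and -3.77, and SLC6A9 was highest in both panels of the metastatic line, at 3.29 and 2.79.

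Of 3 factors known to regulate these enzymes, all 3 were called lower in 786-O than in HK2, 2 in the metastatic line than in HK2, and between the cancer lines 1 was higher and 2 lower. For these and the sets below, the background was 41.6% higher and 42.6% lower in 786-O against HK2. It was 41.6% and 43.3% in the metastatic line against HK2, and 27.9% and 28.0% between the cancer lines. ATF4, which activates serine synthesis under amino acid shortage, was at 258 ± 9.16, 228 ± 7.12 and 259 ± 4.43 CPM in HK2, 786-O and the metastatic line. It was lower in 786-O than in HK2 by -0.18 (edgeR adjusted p = 0.000123), differed by 0.0039 between the metastatic line and HK2 (edgeR adjusted p = 0.924), and rose by 0.19 from 786-O to the metastatic line (edgeR adjusted p = 0.000226). MYC was at 276 ± 11.2, 70.3 ± 2.19 and 60.6 ± 2.97 CPM, with log2 fold changes of -1.97 (edgeR adjusted p = 1.98e-20) and -2.19 (edgeR adjusted p = 3.81e-21) against HK2. NFE2L2, the gene of NRF2, was at 195 ± 4.48, 174 ± 3.92 and 159 ± 2.05 CPM, with log2 fold changes of -0.17 (edgeR adjusted p = 0.000179) and -0.29 (edgeR adjusted p = 1.11e-07) against HK2. Of 7 other targets of ATF4, 2 rose and 5 fell in 786-O, 2 rose and 4 fell in the metastatic line against HK2, and 3 rose and 3 fell between the cancer lines. ASNS, asparagine synthetase, rose in each comparison (0.29, 0.49 and 0.20), and VLDLR fell in each (-1.10, -1.57 and -0.47). Of 8 proliferation markers, 3 rose and 4 fell in 786-O, 3 rose and 3 fell in the metastatic line, and 4 rose and 2 fell between the cancer lines. The part of these differences in the levels of the 10 enzymes was not tested.

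Promoter windows were searched on both strands for TGATGNAA (the composite element of ATF4), CACGTG (the E-box) and TGACNNNGC (the element of NRF2), which were found in 3.62%, 7.26% and 13.3% of the 35116 windows. Of the 10 enzymes, 7 had windows in the RefSeq table, 11 in all. TGATGCAA and CACGTG were found in MTHFD1L in the 3 windows that overlap each other, CACGTG was found in MTHFD1, and MTHFD2 held GCGCAGTCA, a match to TGACNNNGC on the minus strand. None of these letters occurred in the windows of PHGDH, PSAT1, SHMT1 and ALDH1L1. The 2 matches below are shown with the motif in capitals. CACGTG was in both genes, while MTHFD1L was higher and MTHFD1 lower in the cancer lines than in HK2. The difference of MTHFD1L in 786-O was not called in every alternative. Any link of these letters to the levels was not tested. The printed stretches lie at chr6:150866346-150866375 and chr14:64388326-64388355 on the plus strand, each wholly inside an exon of an annotated transcript of its gene.
MTHFD1L: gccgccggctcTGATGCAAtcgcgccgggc
MTHFD1: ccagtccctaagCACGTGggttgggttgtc
A match is a description of the letters and does not show binding.

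Genes with the most similar pattern over the 9 libraries were named for the 4 enzymes with the widest range of line means, by the root mean square difference of centred log2 CPM. For PHGDH these were FOXE1 (0.0944), FLRT2 (0.142) and SLC6A15 (0.259), which were at 77.0, 72.1 and 60.9 CPM in HK2 and at 0.00884 CPM or 0 in the cancer lines. Like PHGDH, these genes passed the filter only through HK2. With the cancer libraries at the floor, the measure mainly ranked genes by how near their HK2 level was to that of PHGDH. Any link between these genes and PHGDH was not tested. For ALDH1L2 they were TGFB1I1 (0.268), SLC2A9 (0.271) and PXDN (0.291). TGFB1I1 was at 115, 8.06 and 59.3 CPM in HK2, 786-O and the metastatic line and PXDN at 18.8 CPM in 786-O and 155 CPM in the metastatic line, both at far higher counts than ALDH1L2. For PSAT1 they were ABLIM3 (0.0393), LPAR1 (0.0558) and PLOD3 (0.0559), and for MTHFD1 they were ZC3H14 (0.0396), PRMT5 (0.0416) and RCOR1 (0.0427).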

How the data were processed

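Poly(A) RNA of 3 independent cultures of each line was sequenced from TruSeq Stranded mRNA libraries on a NextSeq 500. The authors counted reads per gene with featureCounts of Rsubread on GRCh38 (hg38) and deposited raw counts, listed by NCBI gene identifier without normalization or filter. The annotation version and the strand setting are not given in the sources used here. The filter, log2, VSN and limma steps of the study are not part of these counts.

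Symbols for 27745 of 28395 identifiers came from RefSeq (GRCh38.p14), and positions and MANE lengths from GENCODE release 44. Counts were scaled by TMM (factors 0.967 to 1.03) in edgeR 4.0.16 (R 4.3.3). The 12695 genes whose counts averaged 50 or more per library were tested with robust glmQLFit and glmQLFTest, with 1 coefficient per line. The SE of a log2 fold change was computed from its F statistic. The fit was tested on simulated data. The biological coefficient of variation was 3.93%. Totals of 30212291 to 45362428 counts put 3 counts at 0.0661 to 0.0993 CPM in a library. The interval of a log2 fold change includes the spread between cultures, while the counting interval of PHGDH and the floors cover counting error only. Ratios of counts were compared by exact two-sided permutation tests.

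Alternatives were RLE and upper-quartile scaling, DESeq2 1.42.0, limma-voom (limma 3.58.1), no filter, at least 10 counts in every library, a fit restricted to the pair of lines, a block for the replicate number, and omission of single libraries. All 10 enzymes are named. Other pathway genes have full values for the 2 largest positive and 2 largest negative log2 fold changes per comparison, and genes of like pattern are the 3 nearest outside the lists, for the 4 enzymes of widest range. The other genes of the lists and the markers given with values were chosen after their values were seen. The enzymes and lists were chosen with earlier results of these data known. Replicates with the same number did not deviate together in all pairs, so the numbers were not taken to pair the samples. Proteomics, metabolomics and tumor data were not analysed here. Single results of some listed genes are not reported here.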

Additional observations from a re-analysis of the deposited data

Results flagged for a closer look

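For 5 of the 9 enzymes tested, the log2 fold change against HK2 differed between the metastatic line and 786-O by the test of the difference itself, which is the contrast of the cancer lines in the same edgeR fit, as both share the HK2 libraries. Of all genes tested, 56.0% were called in that contrast, so that 5 of 9 is a share near the background. The difference, the metastatic line minus 786-O, was 3.33 for ALDH1L2, 0.40 for PSAT1, 0.32 for MTHFD1L, 0.11 for MTHFD1 and -0.31 for PSPH. For ALDH1L2 and MTHFD1 the level in the metastatic line lay between those of HK2 and 786-O, and for PSAT1 and MTHFD1L it lay farther from HK2 than that of 786-O. The difference of MTHFD1 was lost without 786-O replicate 3 or replicate 2 of the metastatic line.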

How the results depend on the processing

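Of the alternatives to the log2 fold changes of single enzymes, 409 kept direction and side of the threshold, 10 lost the call, 6 gained it and 12 changed sign. All sign changes were in differences that were not called. For PSPH in 786-O against HK2 the value was -0.0030 with RLE scaling, -0.0399 with upper-quartile scaling, -0.0033 with DESeq2 and -0.0122 where every library needed 10 counts, and -0.0402 to 0.0384 when single libraries were left out. For SHMT1 in 786-O against HK2 it was -0.0240 with upper-quartile scaling and -0.0176 to 0.0427 over left-out libraries, and for SHMT2 between the cancer lines -0.0163 to 0.0493 over left-out libraries. The number of enzymes called in the metastatic line against HK2 fell from 8 to 5 with at least 10 counts in every library, because PHGDH and ALDH1L2 then left the test and SHMT1 was not called (edgeR adjusted p = 0.0623). Leaving out single libraries gave 6 to 7, 7 to 8 and 4 to 6 enzymes called in the 3 comparisons.

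In the fit with a replicate block, 7, 8 and 6 enzymes were called, and the difference of MTHFD2 between the cancer lines became a call (edgeR adjusted p = 0.0407). Over all genes the block called 10688, 10797 and 7157, against 10693, 10784 and 7103 without it. Correlations of same-numbered replicates were -0.167 to 0.0376 for both comparisons with HK2 and 0.0740 to 0.215 between the cancer lines. The planned ratio of ALDH1L2 to ALDH1L1 could not be given, since ALDH1L1 had 0 counts in every library. The ratios of SHMT2 to SHMT1 and of MTHFD2 to MTHFD1 kept their direction when single libraries were left out. Depth limits ALDH1L2 in 786-O, which rests on 9 to 12 counts per library, and PHGDH in both cancer lines.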
